A study of Mus musculus with 6 samples.

Results

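Collagen genes were followed in hearts of aged female mice after pressure overload. The family was taken by name, as every gene whose symbol reads Col, a number, the letter a and a number, and held 44 of the 22298 genes listed. Of these 44, 32 had enough counts in the libraries to be tested, among 13708 genes tested in all. The hearts came from wild-type (WT) females aged 18 months, 3 after TAC surgery and 3 after sham surgery. TAC usually stands for transverse aortic constriction, in which the aorta is tied partly shut so that the heart pumps against more pressure. How long after surgery hearts were taken is not given here. The labels number a separate heart for each library of a group, so p-values measure the spread between hearts. No transgene or drug was named for either group.

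Collagens are the main structural proteins of the extracellular matrix, built from chains that wind around each other in a rope-like helix. Fibrillar collagens form the cables of the heart's interstitium, which are mostly types I and III made by fibroblasts. Network collagens of type IV form the sheet of the basement membrane around cardiomyocytes and capillaries. FACIT collagens (fibril-associated collagens with interrupted triple helices) sit on the surface of fibrils. Type VI collagens form beaded filaments, multiplexins such as types XV and XVIII lie at basement membranes, and transmembrane collagens are anchored in the cell membrane. Fibrosis after pressure overload is commonly followed through the fibrillar genes.

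The type IV genes lie in head-to-head pairs that are read in opposite directions. Their start regions are shown because the members of these pairs include 3 of the 4 called collagens and the most abundant one. Sequences are from RefSeq on GRCm38.p6, 5′ to 3′ on the strand given. Capitals mark matches on either strand to the GC box GGGCGG or the CCAAT box CCAAT, which do not overlap each other here. The first stretch runs from base 50 of Col4a3 to base 50 of Col4a4, 171 bases at chr1:82586800-82586970 on the minus strand. The second is where the promoter windows of Col4a1 and Col4a2 overlap, 78 bases at chr8:11312777-11312854 on the minus strand. The last ones are windows of 300 bases, from 250 before to 50 after the start, of Col4a5 (chrX:141475169-141475468, plus strand) and Col4a6 (chrX:141474027-141474326, minus strand).
Col4a3 and Col4a4: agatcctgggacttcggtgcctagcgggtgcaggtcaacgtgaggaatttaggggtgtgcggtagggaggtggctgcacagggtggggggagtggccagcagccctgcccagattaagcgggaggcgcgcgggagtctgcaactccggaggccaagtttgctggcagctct
Col4a1 and Col4a2: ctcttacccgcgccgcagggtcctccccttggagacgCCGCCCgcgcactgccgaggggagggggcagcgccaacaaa
Col4a5: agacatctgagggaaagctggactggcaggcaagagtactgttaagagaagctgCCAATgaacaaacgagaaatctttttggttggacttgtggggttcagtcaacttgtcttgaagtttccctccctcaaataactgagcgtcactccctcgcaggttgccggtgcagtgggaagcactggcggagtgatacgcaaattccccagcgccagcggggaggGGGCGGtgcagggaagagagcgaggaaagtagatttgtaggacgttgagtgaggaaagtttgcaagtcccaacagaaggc
Col4a6: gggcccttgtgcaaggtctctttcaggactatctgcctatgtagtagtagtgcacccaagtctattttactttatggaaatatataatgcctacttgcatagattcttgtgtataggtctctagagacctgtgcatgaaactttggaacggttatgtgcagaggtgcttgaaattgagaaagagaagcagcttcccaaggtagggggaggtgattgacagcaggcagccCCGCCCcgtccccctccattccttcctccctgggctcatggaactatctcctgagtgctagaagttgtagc

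The Col4a3 and Col4a4 stretch held no match to either motif or to the TATA box TATAAA, and 64.3% of its bases were G or C. The Col4a1 and Col4a2 stretch held 1 GC box and was 73.1% G or C. The 300-base windows of Col4a1 and Col4a2 each also held a CCAAT box, which this shorter stretch did not. In the 300-base windows, a GC box was present in 22 of 35 collagen genes with a window and in 35.7% of all 32851 windows of the table. A CCAAT box was present in 12 of the 35 and in 37.4% of all windows, and a TATA box in 5 of the 35 and in 13.6% of all windows. A match is a description of the letters and does not show that a factor binds there. In the annotation, the starts of Col4a3 and Col4a4 lie 71 bases apart, Col4a1 and Col4a2 overlap by 22 bases (where reads cannot be told apart without stated strand use), and Col4a5 and Col4a6 are separated by 1308 bases.

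Total estimated counts per library ranged from 22172718 to 25799573 in TAC and from 19747265 to 27549838 in sham. Levels of 1 gene are given as CPM, the usual depth-scaled counts, on library sizes scaled by TMM, and levels between genes as the deposited FPKM, which also divide by gene length. TAC replicate 1 stood between the other TAC libraries and sham on the first principal component of log2 CPM, which held 57.7% of the variance, at -1.7 against 42.9 and 45.5 in TAC replicates 2 and 3 and -32.0 to -25.2 in sham. The summed CPM of 8 cardiomyocyte markers was 45840, 42120 and 33370 in TAC replicates 1, 2 and 3 and 44320 to 46420 in sham. TAC replicate 3 was the lowest library in 6 of the 8. None of the 8 passed in edgeR (adjusted p under 0.05). At an unadjusted p under 0.05, 0 were higher and 2 lower, against 16.3% and 9.26% of all genes tested. None of these markers was at 0.

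Of the 32 tested collagens, 4 fell in TAC, 0 rose and 28 did not pass (edgeR quasi-likelihood test, Benjamini-Hochberg adjusted p under 0.05 over all genes tested). The genes that fell were Col4a3, Col4a4, Col4a5 and Col28a1. Over all genes tested, 0.54% were called lower and 1.12% higher. At an unadjusted p under 0.05, 12 collagens were lower and 2, Col8a1 and Col27a1, were higher, against 9.26% and 16.3% of all genes. DESeq2's Wald test called 10 lower and 1 higher, and limma-voom with library weights 8 lower and 1 higher, and in each the higher gene was Col27a1. DESeq2 called 4.36% of all genes lower and 7.81% higher, and limma-voom 5.22% lower and 10.1% higher. The median log2 fold change of TAC over sham (log2FC) of the tested collagens was -0.46, against 0.03 over all genes tested, with 26 negative and 6 positive. All 3 TAC values lay below all 3 sham values in 13 of the 32, and above them in 1, against 13.1% and 18.4% of all genes tested.

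The number of collagens called depended on the setting, and so did the share of all genes. With DESeq2 size factors in edgeR, 5 collagens were lower and 0 higher, against 0.569% and 0.963% of all genes, and upper-quartile factors gave 5 and 0, against 0.576% and 1.03%. Without the mitochondrially encoded genes 5 were lower and 0 higher, against 0.569% and 0.955%. With no filter on low counts 4 were lower and 0 higher, against 0.396% and 0.665%, and at a minimum count of 100 these were 3 and 0, against 0.69% and 1.31%. Without TAC replicate 1, 7 were lower and 2 higher, against 10% and 13.2% of all genes. Without TAC replicate 2, 1 was lower and 0 higher, against 0.116% and 0.145%, and without TAC replicate 3, 6 and 0, against 0.374% and 0.59%. Leaving out sham replicate 1, 2 or 3 left 1 lower collagen each time, Col4a3, and 0 higher, against 0.0716%, 0.0646% and 0.0573% of all genes lower and 0.043%, 0.0503% and 0.0287% higher.

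**Figure D1:**
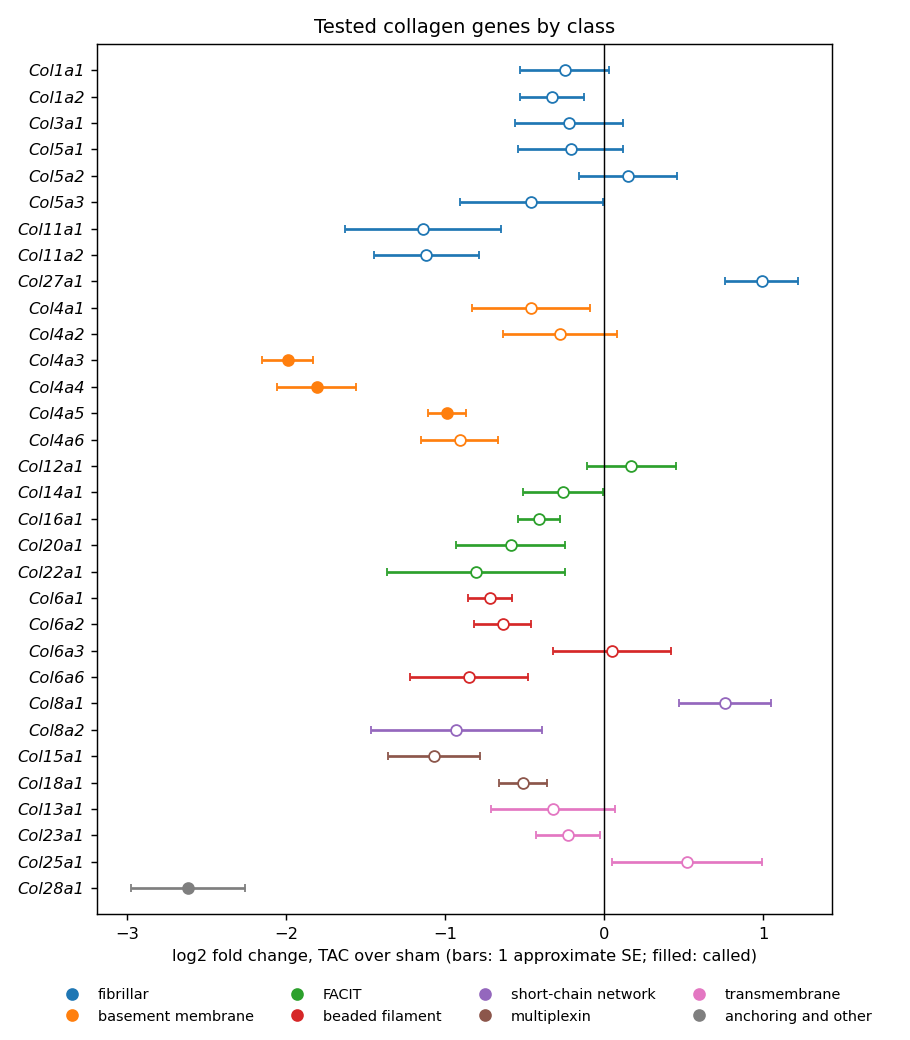
Log2 fold change of TAC over sham (horizontal axis) for the 32 tested collagen genes, coloured by class, with bars of 1 approximate standard error from the edgeR fit. Filled points are the 4 called genes, Col4a3, Col4a4, Col4a5 and Col28a1, which lie between -2.62 and -0.99.

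The minor type IV chains were lower in every TAC library than in any sham library. Col4a3, whose protein joins those of Col4a4 and Col4a5 in a network best known from the kidney filter, had 3.58, 3.603 and 3.02 CPM in TAC replicates 1, 2 and 3, against 13.1, 13.3 and 14.3 CPM in sham replicates 1, 2 and 3. Both groups were narrow and far apart, at 3.40 ± 0.331 CPM in TAC and 13.6 ± 0.608 CPM in sham (SD, n = 3 each). The sham level was 3.98 times the TAC level, a log2FC of -1.99 (SE 0.16, edgeR adjusted p = 0.00142). These CPM rest on 71 to 88 counts per TAC library and 256 to 362 per sham library. Col4a3 (ENSMUSG00000079465, chromosome 1, 82586921 to 82722059, plus strand, GRCm38) was called in all 6 fits that leave out 1 library, with edgeR adjusted p between 0.00261 and 0.0313.

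Col4a4, its head-to-head neighbour (ENSMUSG00000067158, chromosome 1, 82448423 to 82586849, minus strand), had 10.3, 7.16 and 5.06 CPM in TAC, against 23.5, 26.3 and 29.4 CPM in sham. Every TAC library was below the lowest sham library, and the means were 7.495 ± 2.62 and 26.4 ± 2.96 CPM (TAC and sham, SD, n = 3 each). It fell by 1.81 in log2FC (SE 0.25, edgeR adjusted p = 0.0214). Col4a5, on the X chromosome and the gene most often altered in human Alport syndrome (ENSMUSG00000031274, 141475385 to 141689234, plus strand), had 29.4, 27.2 and 30.7 CPM in TAC, against 55.6, 53.7 and 63.5 CPM in sham. The TAC libraries lay close together and all below sham, and Col4a5 fell by 0.99 (SE 0.12, edgeR adjusted p = 0.0122). Both calls were lost without TAC replicate 2, at adjusted p of 0.0914 for Col4a4 and 0.0559 for Col4a5. They were also lost without sham replicates 1, 2 or 3, at 0.0866, 0.119 and 0.133 for Col4a4 and at 0.0736, 0.0826 and 0.0986 for Col4a5. Col4a6, which pairs with Col4a5 in basement membranes of smooth muscle, had 6.35, 6.55 and 4.04 CPM in TAC, against 9.80, 8.75 and 13.4 CPM in sham. Its groups did not overlap and its log2FC was -0.91 (SE 0.24, adjusted p = 0.0799), which did not pass. It passed with DESeq2 (0.0118) and without TAC replicate 1 (0.0458).

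The major chains of type IV, Col4a1 and Col4a2, did not show this separation. Col4a1, the most abundant collagen per length, had 403, 446 and 1157 CPM in TAC, against 955, 884 and 922 CPM in sham. Col4a2 (ENSMUSG00000031503) had 289, 399 and 881 CPM in TAC, against 657, 597 and 645 CPM in sham. In both genes TAC replicates 1 and 2 were below all sham libraries and TAC replicate 3 above them, so the groups overlapped. The log2FC values were -0.46 (SE 0.37, edgeR adjusted p = 0.465) for Col4a1 and -0.28 (SE 0.36, adjusted p = 0.655) for Col4a2. The Col4a1 value rested on single TAC libraries. It was -1.13 and called lower without TAC replicate 3 (adjusted p = 0.0110), -0.22 without TAC replicate 1 (0.667) and -0.27 without TAC replicate 2 (0.715). The sham spread of these genes was small, at SDs of 35.7 and 32.1 CPM, against 423 and 315 CPM in TAC.

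**Figure D2:**
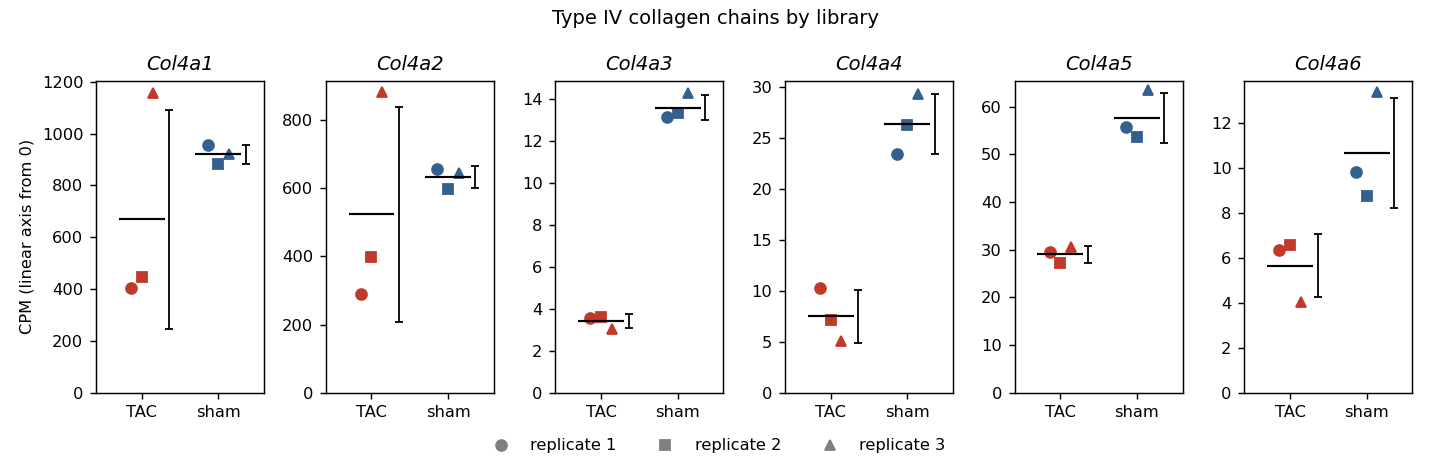
CPM of the 6 type IV chains in each library, TAC on the left and sham on the right of each panel, with the group mean as a line and the SD as a bar beside it (n = 3 each). Col4a1 and Col4a2 spread widely in TAC, with replicate 3 above sham, while TAC lies below sham in all libraries for Col4a3 to Col4a6.

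The chains of type IV were also compared within each library. Per length, Col4a3 stood at 0.00537, 0.00480 and 0.00159 of the Col4a1 level (ratio of FPKM) in TAC replicates 1, 2 and 3, against 0.00865, 0.00907 and 0.00986 in sham. All 3 TAC ratios were below the lowest sham ratio, and TAC replicate 3, with the highest Col4a1 level, had the lowest ratio. The Col4a5 to Col4a1 ratio of FPKM was 0.0623, 0.0508 and 0.0218 in TAC and 0.0517, 0.0492 and 0.0612 in sham, so these groups overlapped. The ratio of Col4a1 to Col4a2, whose chains make up 1 molecule, was 1.6 ± 0.155 in TAC and 1.77 ± 0.0863 in sham (ratio of FPKM, SD, n = 3 each). The Col4a3 to Col4a4 ratio of FPKM was 0.570 ± 0.145 in TAC and 0.613 ± 0.0461 in sham. Summed over Col4a3 to Col4a6, FPKM were 6.92, 6.53 and 6.63 in TAC and 14.3, 13.8 and 17.4 in sham. Summed over Col4a1 and Col4a2 they were 117, 148 and 378 in TAC and 276, 261 and 276 in sham.

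Endothelial and mural cells make type IV collagen, and their markers are given beside it. Of 10 endothelial markers, 2 fell (Tie1 and Aqp1), 0 rose and 8 did not pass, against 0.54% lower and 1.12% higher of all genes tested. At an unadjusted p under 0.05 (edgeR), 4 were lower and 1 higher, against 9.26% and 16.3% of all genes. The endothelial sum was 2110 to 2270 CPM in TAC and 2572 to 2828 CPM in sham. Of 10 smooth muscle and pericyte markers none passed, with 5 lower and 0 higher at an unadjusted p under 0.05, against the same shares. Their summed level was 1132 to 1428 CPM in TAC and 1462 to 1726 CPM in sham. None of these markers was at 0, and their part in the type IV values was not tested. In whole hearts, fewer cells of a type and less RNA per cell cannot be told apart.

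Fibrillar collagens did not pass in either direction, and the TAC libraries disagreed among themselves. The 11 fibrillar genes include 9 that were tested, with a median log2FC of -0.25. Col1a1 and Col1a2, the chains of type I, had 132, 167 and 280 CPM and 198, 259 and 327 CPM in TAC, against 250, 181 and 258 CPM and 343, 276 and 370 CPM in sham. The groups overlapped in both genes, with TAC replicate 1 the lowest of all 6 libraries. Col3a1, the chain of type III, had 327, 376 and 827 CPM in TAC, against 627, 467 and 686 CPM in sham. TAC replicates 1 and 2 were below all sham libraries and TAC replicate 3 above them. Col1a2 had a log2FC of -0.33 (SE 0.20, edgeR adjusted p = 0.332), against -0.25 (SE 0.28, adjusted p = 0.592) for Col1a1 and -0.22 (SE 0.34, adjusted p = 0.715) for Col3a1. The Col1a2 value was -0.19 without TAC replicate 1 and -0.54 without TAC replicate 3.

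Type V chains nucleate the type I fibril, and all 3 were below the sham range in TAC replicate 1 and above it in TAC replicate 3. Col5a1 had 54.4, 76.4 and 148 CPM in TAC, against 122, 92.4 and 108 CPM in sham, and Col5a2 had 58.7, 79.4 and 151 CPM in TAC, against 92.0, 78.1 and 89.6 CPM in sham. Col5a3, the least abundant chain of the type, had 8.59, 14.5 and 37.4 CPM in TAC, against 27.8, 26.8 and 28.8 CPM in sham. Over the 6 chains of types I, III and V, TAC replicate 1 was below the sham range in 6 and TAC replicate 2 in 5, and TAC replicate 3 was above it in 5. Their summed FPKM were 159, 192 and 388 in TAC and 295, 218 and 312 in sham. The log2FC values were -0.21 (SE 0.33, edgeR adjusted p = 0.713) for Col5a1, 0.15 (SE 0.31, adjusted p = 0.776) for Col5a2 and -0.46 (SE 0.45, adjusted p = 0.541) for Col5a3. The Col5a3 value ran between -1.28 without TAC replicate 3 and -0.12 without TAC replicate 1.

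**Figure D3:**
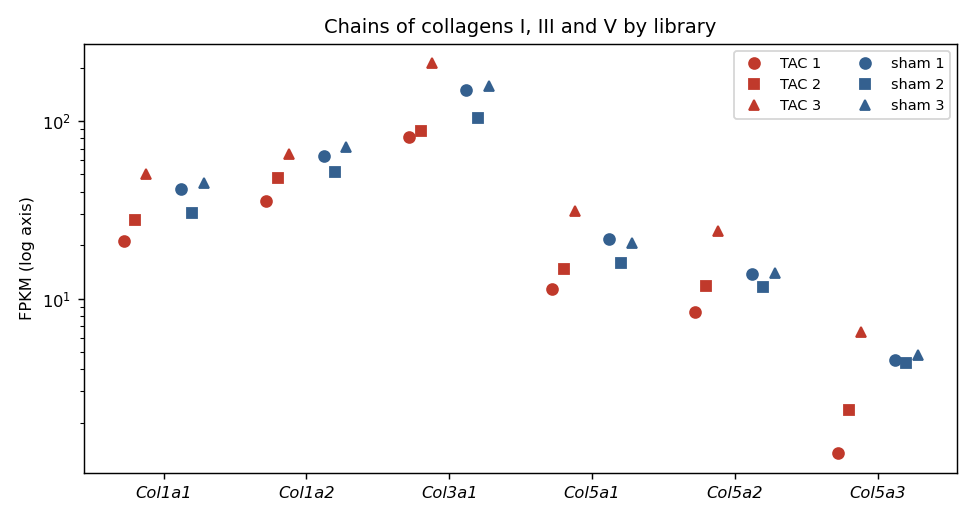
FPKM on a log axis for the chains of types I, III and V, TAC libraries on the left and sham on the right of each gene. TAC replicate 1 is the lowest library for all 6 genes, and TAC replicate 3 is above all sham libraries for each gene but Col1a2.

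Ratios between chains of the fibrillar types were also compared within libraries. Col1a1 stood at 0.601, 0.582 and 0.773 of Col1a2 in TAC, against 0.658, 0.586 and 0.629 in sham (ratio of FPKM). Relative to Col3a1 it was at 0.272 ± 0.0417 in TAC and 0.284 ± 0.00601 in sham (SD, n = 3 each). Col5a1 relative to Col5a2 was at 1.34, 1.24 and 1.3 in TAC and 1.58, 1.37 and 1.49 in sham, where all TAC ratios were below all sham ratios. The same ratio taken on counts was 0.958 ± 0.0286 in TAC and 1.24 ± 0.0756 in sham.

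The less abundant fibrillar genes had fold changes of both signs, and none passed. Col27a1, a fibrillar chain best known from cartilage, had 4.89, 6.51 and 6.80 CPM in TAC, against 3.75, 2.91 and 2.54 CPM in sham. It was the only tested collagen with all TAC libraries above sham, at a log2FC of 0.99 (SE 0.23, edgeR adjusted p = 0.0640), which did not pass. Its adjusted p was 0.00887 with DESeq2, 0.0193 with limma-voom and 0.0171 without TAC replicate 1. Col11a1 and Col11a2, chains of the cartilage fibril, were among the less abundant tested members. Col11a2 had 0.936, 1.22 and 0.893 CPM in TAC, against 2.46, 1.51 and 2.68 CPM in sham, without overlap, and did not pass (log2FC -1.12, SE 0.33, adjusted p = 0.0949), although it did with DESeq2 (0.0490). Col11a1 had a log2FC of -1.14 (SE 0.49, adjusted p = 0.189). Among 8 cartilage and valve markers 7 were tested and none passed (at an unadjusted p under 0.05, 0 higher and 2 lower), and 1, Matn3, was at 0 in all libraries. Their summed level was 36.3 to 79.4 CPM in TAC and 110 to 125 CPM in sham, and its part in these values was not tested. The tested markers went both ways, with 4 log2FC values positive and 3 negative and a median of 0.29.

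The beaded filament chains of type VI, which link cells to the fibrils, were lower in TAC for Col6a1 and Col6a2 without passing. Col6a1 had 109, 101 and 125 CPM in TAC, against 204, 160 and 187 CPM in sham. Col6a2 had 112, 96.2 and 136 CPM in TAC, against 210, 150 and 178 CPM in sham. Neither gene overlapped between the groups. Col6a1 had a log2FC of -0.72 (SE 0.14, edgeR adjusted p = 0.0504) and Col6a2 one of -0.64 (SE 0.18, adjusted p = 0.0818). Col6a2 passed with DESeq2 (0.00664) and limma-voom (0.0445). Col6a1 passed with DESeq2 size factors (adjusted p = 0.0462), upper-quartile factors (0.0455), DESeq2 (7.71e-05), limma-voom (0.0201), without the mitochondrially encoded genes (0.0465), without TAC replicate 1 (0.0193) and without TAC replicate 3 (0.0411).

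Col6a3, the third chain of the type VI molecule, did not follow them. It had 64.8, 51.4 and 152 CPM in TAC, against 101, 69.9 and 89.2 CPM in sham, so TAC replicate 3 was the highest and TAC replicate 2 the lowest library. Its ratio to Col6a1 in FPKM was 0.270, 0.245 and 0.705 in TAC, against 0.231, 0.215 and 0.238 in sham, with all TAC ratios above sham and TAC replicate 3 far above the rest. The Col6a1 to Col6a2 ratio of FPKM overlapped between the groups, at 0.962 ± 0.0696 in TAC and 1.01 ± 0.0494 in sham (SD, n = 3 each). The log2FC of Col6a3 was 0.05 (SE 0.37, adjusted p = 0.949), against -0.59 when TAC replicate 3 was left out (adjusted p = 0.128). Col6a6, an alternative to the Col6a3 chain, had 10.4, 4.47 and 3.53 CPM in TAC, against 9.96, 10.3 and 13.0 CPM in sham, with a log2FC of -0.85 (SE 0.37, adjusted p = 0.198). It was called at -1.48 without TAC replicate 1 (0.00794) and at -1.10 in limma-voom (0.0397).

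**Figure D4:**
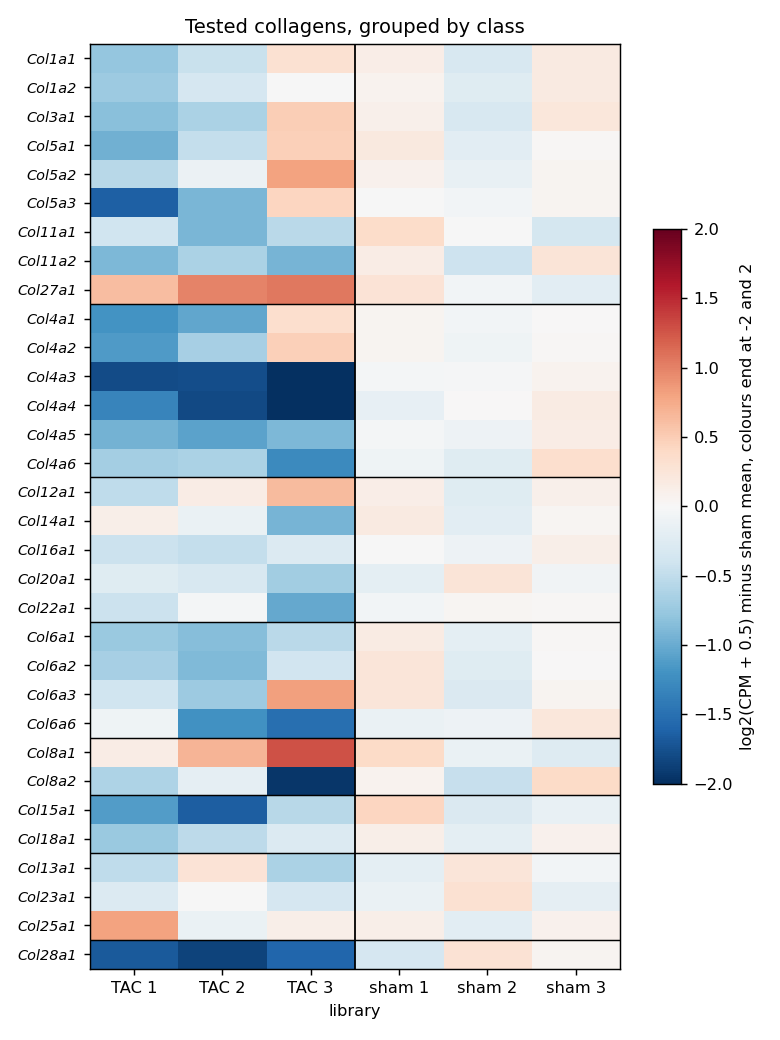
Colours show log2 of CPM plus 0.5, minus the sham mean, for the 32 tested collagens (rows, black lines between classes) in each library (columns, TAC left of sham). TAC replicate 1 is below the sham range in 27 of the 32 genes, TAC replicate 2 in 22 and TAC replicate 3 in 19, while TAC replicate 3 is above it in 11.

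Read by library, the family was low in TAC replicates 1 and 2 and mixed in TAC replicate 3. Of the 32 tested collagens, 27 were below the sham range in TAC replicate 1, where 28.3% of all genes tested were. In TAC replicate 2 this held for 22 collagens and 38.4% of all genes, and in TAC replicate 3 for 19 and 36.7%. Above the sham range were 2, 4 and 11 collagens in TAC replicates 1, 2 and 3, against 36%, 38.8% and 43.2% of all genes. Collagens together took 0.199%, 0.235% and 0.488% of all counts in TAC and 0.414%, 0.340% and 0.419% in sham. The mitochondrially encoded genes took 26.9% to 30.5% in TAC and 25.7% to 29.1% in sham. With them left out of the total, the collagen share was 0.286%, 0.334% and 0.667% in TAC and 0.583%, 0.467% and 0.565% in sham. The TAC range spanned the sham range, so summed collagen RNA did not separate the groups.

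Fibroblasts make most fibrillar collagen, and their markers were set beside it in each library. The summed level of 10 fibroblast markers was 3342, 3114 and 1919 CPM in TAC and 4818, 4307 and 4621 CPM in sham. TAC replicate 3 was thus lowest in this sum and highest in summed fibrillar collagen. By gene, it was the lowest library in 6 of the 10 markers and the highest in 2. None of the 10 passed (at an unadjusted p under 0.05, 0 higher and 3 lower, against 16.3% and 9.26% of all genes). Their log2FC values were negative in 9 and positive in 1, with a median of -0.24. The list includes Col15a1 itself. None of the 9 activated fibroblast markers passed (3 higher and 2 lower at an unadjusted p under 0.05), and their summed level was 411, 489 and 630 CPM in TAC and 669, 497 and 529 CPM in sham. The sum does not show the typical member, as their median log2FC was 0.59, with 6 positive and 3 negative. No marker of either list was at 0, and their part in the collagen values was not tested. TAC replicate 3 was also the library with the lowest summed adipocyte markers, 13.8 CPM against 194 and 211 CPM in TAC replicates 1 and 2 and 87.3 to 452 CPM in sham. Epicardial and mesothelial markers, none of 7 passing (0 also at an unadjusted p under 0.05), summed to 74.0 to 117 CPM in TAC and 54.1 to 232 CPM in sham. The part of either list in the collagen values was not tested.

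The multiplexins, whose C-terminal ends are released as fragments, were lower in all TAC libraries and did not pass. Col15a1, of the basement membrane of muscle and capillaries, had 90.7, 62.8 and 134 CPM in TAC, against 265, 162 and 178 CPM in sham. Its log2FC was -1.07 (SE 0.29, edgeR adjusted p = 0.0819), with 0.00259 by DESeq2 and 0.0263 by limma-voom. Col18a1, the source of endostatin, had 27.8, 32.3 and 38.3 CPM in TAC, against 50.6, 40.6 and 49.4 CPM in sham, with a log2FC of -0.51 (SE 0.15, adjusted p = 0.0948, and 0.0270 by DESeq2). Col18a1 lies over part of Slc19a1 in the annotation, and without stated strand use their shared reads cannot be told apart.

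The short-chain network collagens of type VIII, best known from vessel walls and the cornea, had fold changes of opposite sign, and neither passed. Col8a1 had 32.0, 46.5 and 70.0 CPM in TAC, against 37.6, 26.2 and 24.0 CPM in sham. TAC replicate 1 lay inside the sham range and the other two above it. Its log2FC was 0.76 (SE 0.29, edgeR adjusted p = 0.150). Leaving out TAC replicate 1 gave a called value of 0.98 (adjusted p = 0.0278), and leaving out TAC replicate 3 gave 0.41, which was not called (0.342). Col8a2 had 2.16, 3.08 and 0.553 CPM in TAC, against 3.80, 2.46 and 4.80 CPM in sham, a log2FC of -0.93 (SE 0.54, adjusted p = 0.308), with -1.46 without TAC replicate 2 and -0.50 without TAC replicate 3. Col8a1 thus stood at 12.7, 12.8 and 104 times Col8a2 in TAC and 8.36, 9.04 and 4.24 times in sham (ratio of FPKM).

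FACIT collagens did not pass. Col14a1, which sits on type I fibrils and is the most abundant of them, had 81.1, 67.8 and 38.9 CPM in TAC, against 84.6, 63.9 and 76.1 CPM in sham. TAC replicate 3, highest in fibrillar collagens, was lowest here (log2FC -0.26, SE 0.25, edgeR adjusted p = 0.539). Col16a1 had 13.6, 13.2 and 15.1 CPM in TAC, against 18.4, 17.1 and 20.04 CPM in sham, without overlap (log2FC -0.41, SE 0.13, adjusted p = 0.104). Col12a1, found on fibrils of tissue under tension, had 6.72, 10.9 and 15.4 CPM in TAC, against 10.7, 8.17 and 10.5 CPM in sham (log2FC 0.17, SE 0.28, adjusted p = 0.735). Col20a1 and Col22a1, the other tested members, were low in every library, at log2FC values of -0.59 (SE 0.34) and -0.81 (SE 0.56). Col22a1 was at -1.43 without TAC replicate 2 and -0.40 without TAC replicate 3.

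Col28a1, a small collagen known in the mouse from peripheral nerve, had the largest decrease among the tested collagens. It had 0.407, 0.304 and 0.468 CPM in TAC, against 1.80, 3.02 and 2.49 CPM in sham, without overlap. The sham level was 6.14 times the TAC level, a log2FC of -2.62 (SE 0.36, edgeR adjusted p = 0.0227). Col28a1 (ENSMUSG00000068794, chromosome 6, 7997808 to 8192617, minus strand) rested on 10, 7 and 11 counts in TAC and 35, 82 and 54 in sham. Its call was lost without TAC replicate 2 (adjusted p = 0.0857) and without sham replicates 1, 2 or 3 (0.0715, 0.149 and 0.133). None of 8 Schwann cell markers passed (0 higher and 1 lower at an unadjusted p under 0.05), none was at 0, and their summed level was 38.2 to 49.01 CPM in TAC and 39.0 to 49.96 CPM in sham. The sum was carried by the more abundant Cnp and Mbp. Of the 8, 2 (Sox10 and S100b) were below all sham libraries in every TAC library, against 13.1% of all genes tested, and 6 overlapped. Over the 8 markers, log2FC values were positive in 3 and negative in 5, with a median of -0.28. The part of these markers in the Col28a1 values was not tested.

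Transmembrane collagens were low and did not pass. Col23a1 had 6.35, 7.77 and 6.08 CPM in TAC, against 7.08, 9.67 and 6.83 CPM in sham (log2FC -0.23, SE 0.20, edgeR adjusted p = 0.5). Col13a1, of the neuromuscular junction, and Col25a1, a neuronal collagen, were lower still, at log2FC values of -0.32 (SE 0.39) and 0.52 (SE 0.47). Without TAC replicate 1 Col25a1 was at -0.03, and Col13a1 ran between -0.82 without TAC replicate 2 and -0.12 without TAC replicate 3.

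Another 12 collagens did not meet the filter on low counts and were not tested. Col10a1 of growing cartilage held 1 count in TAC and 1 in sham over all libraries, and Col2a1, the main fibrillar chain of cartilage, 3 and 11. The type IX chains, which coat cartilage fibrils, held 7 counts in TAC and 24 in sham for Col9a1, 12 and 35 for Col9a2 and 3 and 21 for Col9a3. Col26a1 held 11 counts in TAC and 35 in sham. The remaining ones, Col7a1, Col17a1, Col19a1, Col24a1 and Col6a4, held at most 20 counts per group. A count of 0 in a library allows up to 0.116 to 0.135 CPM in TAC and 0.109 to 0.152 CPM in sham, which is 3 counts, and these limits cover counting error only. Col6a5, an alternative to Col6a3, was high in 1 library only, with 10, 198 and 6 counts in TAC and 3, 5 and 33 in sham.

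Genes that make and secrete collagen mostly did not pass. Of 15 genes of hydroxylation and glycosylation 0 rose and 0 fell (edgeR, and 3 higher and 2 lower at an unadjusted p under 0.05). P4hb, a subunit of prolyl 4-hydroxylase, had 330, 331 and 468 CPM in TAC, against 300, 311 and 315 CPM in sham (log2FC 0.29, SE 0.17, adjusted p = 0.314). Ppib, a proline isomerase of the endoplasmic reticulum whose counts were fractional, had a log2FC of 0.34 (SE 0.12, adjusted p = 0.123, and 0.0474 without TAC replicate 1). Of 12 folding and secretion genes 1 rose, 0 fell and 11 did not pass, against 1.12% higher and 0.54% lower of all genes tested. The log2FC was positive in 10 genes and negative in 2. At an unadjusted p under 0.05 (edgeR), 5 were higher and 0 lower, against 16.3% and 9.26% of all genes. These were Hspa5, Mia3, Mia2, Pdia3 and Fkbp14. Hspa5, the general chaperone of the endoplasmic reticulum and not particular to collagen, rose to 424, 562 and 537 CPM in TAC, against 294, 301 and 268 CPM in sham (log2FC 0.82, SE 0.15, edgeR adjusted p = 0.0436). The Hspa5 call was lost without the mitochondrially encoded genes (adjusted p = 0.0504), without the filter on low counts (0.0547) and without any 1 library but TAC replicate 1 (0.0648 to 0.251).

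Outside the cell, 8 tested genes of procollagen processing did not pass (1 higher and 1 lower at an unadjusted p under 0.05 in edgeR). Bmp1, the C-proteinase of fibrillar procollagen, had a log2FC of -0.18 (SE 0.11, adjusted p = 0.352), and its enhancer Pcolce one of 0.01 (SE 0.15, adjusted p = 0.960), which turned negative under 9 of 14 other settings. None of 6 cross-linking genes passed (2 higher and 0 lower at an unadjusted p under 0.05). Tgm2, a transglutaminase, had 444, 492 and 924 CPM in TAC, against 348, 351 and 361 CPM in sham, without overlap (log2FC 0.81, SE 0.27, adjusted p = 0.112). Tgm2 was called by DESeq2 (0.0245), by limma-voom (0.0429) and without TAC replicate 1 (0.0286), and was at 0.39 without TAC replicate 3. Loxl1, a lysyl oxidase of elastic fibres, had 48.4, 60.1 and 99.8 CPM in TAC, against 72.1, 63.6 and 73.4 CPM in sham. Lox, the main lysyl oxidase of collagen, named after its values were seen, had 8.88, 34.5 and 60.1 CPM in TAC, against 9.54, 11.9 and 10.6 CPM in sham. TAC replicate 1 was below all sham libraries and the other TAC libraries above, and Lox did not pass (log2FC 1.68, SE 0.56, adjusted p = 0.112). It was called at 2.12 without TAC replicate 1 (0.00423) and at 1.42 in limma-voom (0.0457), and was at 1.00 without TAC replicate 3.

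Of 16 collagen-binding matrix genes 2 fell, 0 rose and 14 did not pass, against 0.54% lower and 1.12% higher of all genes tested. At an unadjusted p under 0.05 (edgeR), 3 were lower and 3 higher, against 9.26% and 16.3% of all genes. The log2FC values were negative in 10 and positive in 6. Fmod, fibromodulin, which binds type I collagen and guides fibril growth, had 22.2, 27.2 and 20.4 CPM in TAC, against 51.1, 65.2 and 74.8 CPM in sham. It fell by 1.45 in log2FC (SE 0.18, edgeR adjusted p = 0.0122), without overlap, and the call was lost without sham replicate 2 (0.0999) or 3 (0.0947). Sparc, a collagen-binding protein of the basement membrane and interstitium, had 337, 326 and 485 CPM in TAC, against 821, 729 and 817 CPM in sham (log2FC -1.04, SE 0.18, edgeR adjusted p = 0.0391). Its call was lost without TAC replicate 2 (0.113) and without sham replicates 1, 2 or 3 (0.151, 0.182 and 0.221). Unlike Col4a1 and Col3a1, both genes were below the sham range also in TAC replicate 3. Tnc, tenascin C of healing tissue, named after its values were seen, had 10.1, 8.29 and 162 CPM in TAC, against 5.18, 2.43 and 3.56 CPM in sham, and did not pass (log2FC 4.03, adjusted p = 0.0882). Tnc was called at 4.50 without TAC replicate 1 (0.0263) and was at 1.3 without TAC replicate 3.

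**Figure D5:**
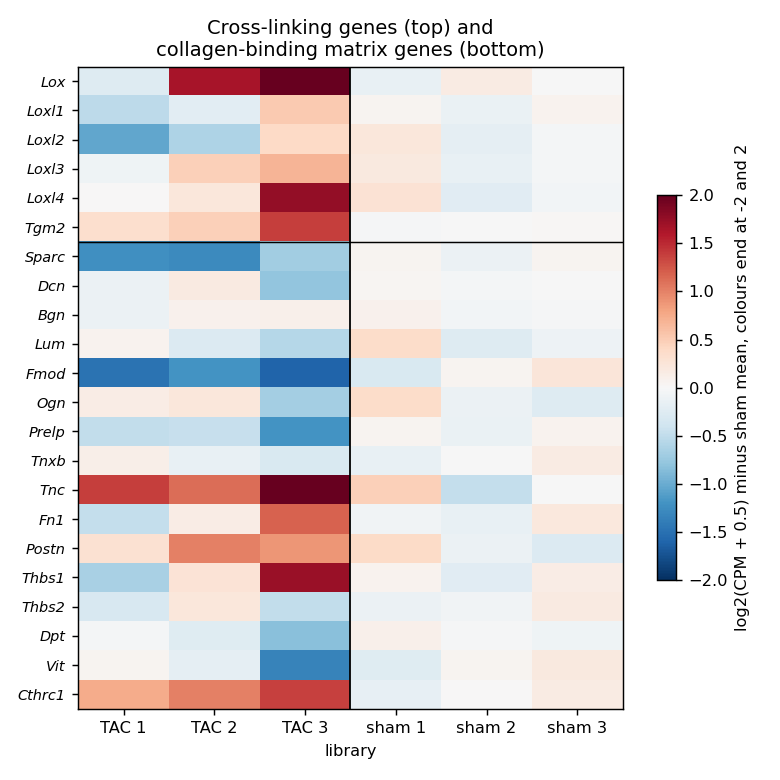
Colours show log2 of CPM plus 0.5, minus the sham mean, for 6 cross-linking genes (above the line) and 16 collagen-binding matrix genes (below it) in each library, TAC left of sham. Sparc and Fmod are low in all 3 TAC libraries, and Lox and Tnc reach 60.1 and 162 CPM in TAC replicate 3.

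Of 14 genes of collagen degradation and its inhibitors 1 rose, 0 fell and 13 did not pass, against 1.12% higher and 0.54% lower of all genes. At an unadjusted p under 0.05 (edgeR), 3 were higher and 3 lower, against 16.3% and 9.26%. The log2FC values were positive in 8 and negative in 6. The gene called was Mmp8, the collagenase of neutrophil granules, with 0.692, 7.25 and 6.89 CPM in TAC, against 0.205, 0.0368 and 0.0924 CPM in sham (log2FC 5.49, SE 1.01, edgeR adjusted p = 0.0436). These values rest on 17, 167 and 162 counts in TAC and 4, 1 and 2 in sham. With sham so near 0 counts, the size of this fold change is uncertain. The Mmp8 call was lost without TAC replicate 2 (0.125), TAC replicate 3 (0.0734) and sham replicates 1, 2 or 3 (0.151, 0.219 and 0.235). Of 8 macrophage markers 3 rose (Cd68, Mrc1 and Ccr2) and 0 fell, against 1.12% and 0.54% of all genes tested. At an unadjusted p under 0.05 (edgeR), 7 were higher and 0 lower, against 16.3% and 9.26%. The 8 markers summed to 721, 1140 and 995 CPM in TAC and 631, 553 and 602 CPM in sham. Their part in the Mmp8 values was not tested. Timp1, an inhibitor of metalloproteinases, named after its values were seen, had 22.4, 18.9 and 205 CPM in TAC, against 9.65, 6.33 and 6.05 CPM in sham (log2FC 3.48, adjusted p = 0.0769). Timp1 was called at 3.90 without TAC replicate 1 (0.0213), at 1.48 without TAC replicate 3 (0.0321) and at 2.34 in limma-voom (0.0400). None of 9 tested collagen receptors passed (1 higher and 1 lower at an unadjusted p under 0.05), Itgb1 and Ddr1 having log2FC values of 0.25 (SE 0.18) and -0.14 (SE 0.15). None of 14 genes of collagen transcription passed (4 higher and 2 lower at an unadjusted p under 0.05). Ccn2, a matrix-inducing target of TGF-beta, had 130, 165 and 329 CPM in TAC, against 57.0, 104 and 101 CPM in sham, without overlap (log2FC 1.25, SE 0.37, edgeR adjusted p = 0.0911). It was called by DESeq2 (0.00559) and at 1.48 without TAC replicate 1 (0.0252), and was at 0.74 without TAC replicate 3. Tgfbr2, a TGF-beta receptor, had a log2FC of 0.26 (SE 0.12, adjusted p = 0.223).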

How the data were processed

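Heart RNA was taken up in Trizol and selected with oligo(dT) before NEBNext Ultra libraries were sequenced on a NovaSeq, per the labels' protocols. The authors deposited an estimated count and an FPKM value per gene and library, per the file headers. Bowtie2 2.2.8, HISAT2, StringTie 1.3.1, DESeq2 and GRCm38 are named in the submitters' processing notes, and the sources used here do not give which of them made which column, the annotation or the strand setting. Symbols and positions came from GENCODE M21 (GRCm38), which matched 22255 of 22298 identifiers. All 44 collagens had whole counts. In 17 collagens with at least 200 counts in each library, counts per FPKM differed between libraries by 1.00 to 1.28 times, so FPKM depend on a length that varied by library.

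Estimated counts were rounded and fitted over all genes in R 4.3.3 with edgeR 4.0.16, using filterByExpr (min.count 10), TMM, glmQLFit and a two-sided glmQLFTest of TAC over sham without covariates, with Benjamini-Hochberg adjustment at 0.05. SE is the log2 fold change divided by the square root of F, an approximation. The biological coefficient of variation was 21.8%. On data simulated for TAC against sham, with 13588 genes tested, 95.2% of genes changed by 2 on the log2 scale and 55.1% of those changed by 1 were recovered. In it, 13 unchanged genes were also called. The simulation gave both groups the same spread and shifted no single library, so these shares need not hold for the real libraries. Libraries of a group differed by more than sampling noise, with chi-square over degrees of freedom of 78.2 to 100.2 in TAC and 11.7 to 18.1 in sham. Alternatives were DESeq2 1.42.0, limma 3.58.1 (voom), other size factors and filters, a replicate block and each library left out.

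Full values were set for called collagens, the 3 highest and 3 lowest log2 fold changes and up to 4 most abundant members of each class (others, such as Col4a6 and Col8a2, were added so that each member is accounted for), and from each related list for up to 4 called genes by adjusted p, or the 2 of highest FPKM where no gene was called. The members and lists were chosen with earlier results of these data known. Genes with fractional counts may share reads with other genes.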

Additional observations from a re-analysis of the deposited data

How the results depend on the processing

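The counts of calls moved with the tool and with single libraries. DESeq2 called 1 collagen higher and 10 lower and limma-voom 1 and 8, against 0 and 4 in edgeR. Of the collagen-related genes they called 13 and 16 higher and 7 and 6 lower, against 2 and 2 in edgeR. Of all genes, DESeq2 called 7.81% higher and 4.36% lower, limma-voom 10.1% and 5.22%, and edgeR 1.12% and 0.54%. Without 1 library, collagens called higher ranged from 0 to 2 and lower from 1 to 7, and related genes from 0 to 22 higher and 0 to 9 lower. The highest counts were without TAC replicate 1, where 13.2% of all genes were called higher and 10% lower. The single collagen called without TAC replicate 2 or any 1 sham library was Col4a3. Those fits also have fewer samples. Related genes called higher were 1 without the filter on low counts, at a minimum count of 100 and without the mitochondrially encoded genes. With the replicate number as a block, 3 collagens were lower and 0 higher (Col28a1 lost its call, adjusted p = 0.064), and 0 related genes were higher and 1 lower, against 0.19% of all genes lower and 0.35% higher. Same-numbered libraries deviated together at correlations of -0.111 to 0.011, and not every library correlated best with its own number. No pairing by number was thus seen, but deviations from means of 3 libraries cannot exclude one. Summed collagen FPKM had a log2 ratio of TAC to sham of -0.32, or -0.35 on TMM-scaled sizes.
Signs turned in 7 genes, 6 of them between -0.21 and 0.17 with all libraries and Col25a1 at 0.52. Log2 fold changes without TAC replicate 1 were 0.04 for Col5a1, -0.03 for Col25a1, -0.09 for Pcolce and 0.18 for Loxl1. Without TAC replicate 3 they were -0.34 for Col5a2, -0.17 for Col12a1, -0.59 for Col6a3 and -0.05 for Pcolce. Without sham replicate 2, Col6a3 was at -0.11 and Pcolce at -0.06. Col6a3 was at -0.22 in limma-voom and -0.11 with the block. Pcolce was at -0.07 in limma-voom and -0.01 with DESeq2 or upper-quartile factors, in DESeq2, without the filter on low counts and without the mitochondrially encoded genes. Over the fits without 1 library, log2 fold changes ranged from -0.73 to 0.04 for Col5a1, -0.34 to 0.39 for Col5a2, -0.17 to 0.41 for Col12a1, -0.59 to 0.3 for Col6a3, -0.03 to 0.76 for Col25a1, -0.09 to 0.12 for Pcolce and -0.37 to 0.18 for Loxl1. Loxl1 was at 0.01 at a minimum count of 100, 0.06 without TAC replicate 2 and 0.03 without sham replicate 3. The cause of these changes was not tested. Depth limits most of the 12 collagens left out of the test, which had a few counts per library. Col6a5, also left out, had most of its counts in TAC replicate 2.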
